A study of Mus musculus with 9 samples.

Results

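The 44 collagen chain genes of the mouse were followed across 3 endothelial populations of the embryonic heart. They were taken as every row whose symbol starts with Col and gives a chain number after a type number, which selected 44 of 41214 features in the table. By family, 11 encode fibrillar chains, 6 encode type IV chains of the basement membrane and 9 encode FACIT chains, the collagens that attach to the surface of fibrils. The other 18 encode type VI, type XV and XVIII (multiplexin), transmembrane and further chains. Of the 44, 40 had enough counts to be tested. Those without enough counts were Col2a1, Col9a1, Col9a2 and Col10a1, which encode chains best known from cartilage.

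Collagens are secreted or membrane-bound proteins made of 3 chains wound into a triple helix. Fibrillar collagens form the tensile fibres of connective tissue, and in the heart they are made mainly by fibroblasts and valve cells. Type IV collagen forms a sheet-like network in the basement membrane on which endothelial cells sit, and the multiplexins XV and XVIII lie in or next to that membrane.

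All cells came from ventricles, with atria and aortic region removed, of E17.5 embryos that carried Nes-CreER(Tg/0) and R26(tom/+) together with Nes-Gfp(Tg/0). A dose of 0.1 ug tamoxifen was given at E15.5. In these embryos the promoter of Nes (nestin) drives both GFP and the tamoxifen-dependent Cre that switches on Tomato, so all populations share these transgenes and the treatment. Viable cells negative for Ter119 and CD45 were sorted. The arterial population was CD31+, GFP+, Emcn-low and Tomato+, which favours arteries and capillaries inside the myocardium. The venous gate was CD31+, Emcn-low and Tomato-, which favours veins under the epicardium, and the design text gives it both as GFP+ and as GFP-low. The endocardial population was CD31+ and GFP+, with no condition on Emcn or Tomato in the gate as written. There were 3 libraries of each, and the labels do not state whether these came from separate animals or pools, so p-values measure the spread between these libraries.

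The 9 libraries held 12750553 to 19474419 counts. Levels are given in CPM, the depth-scaled count unit (TMM library sizes were used), ± SD of 3 libraries. Differences are log2 values ± standard error (SE). A gene was called at an adjusted p under 0.05 in edgeR's quasi-likelihood test over 17103 genes. The marker lists were chosen with earlier results of these data known, so they are not an independent check of the labels. Of 6 arterial markers, 6 (Gja5, Gja4, Cxcr4, Hey1, Jag1, Efnb2) were higher in arterial than in venous libraries. Of 3 venous markers, 2 (Nr2f2, Aplnr) were lower in arterial than in venous libraries, and 5 of 5 endocardial markers were lower in both coronary populations than in endocardial libraries. Between the coronary populations, 3 of these 5 were called, each with its higher mean on the venous side. Arterial and venous means were 7.33 and 49.7 CPM for Cdh11, 3.25 and 13.4 for Adgrg6, and 2.65 and 14.2 for Tmem108. Their adjusted p was 3.32e-05, 6.61e-06 and 9.32e-05 in that order (edgeR). Npr3 and Nfatc1 were not called there (adjusted p = 0.278 and 0.882). The part of endocardial RNA in the arterial to venous differences was not tested. Endocardial replicate 1 stood apart from the other endocardial libraries, with 21021 genes above 0 against 17251 and 17063 in endocardial replicates 2 and 3. Replicate 1 was also highest in the arterial (21160, 19528 and 20269) and venous libraries (19665, 19208 and 18354, replicates 1 to 3). Without endocardial replicate 1, all 15 collagen calls between arterial and endocardial libraries were still made. Between venous and endocardial libraries 12 of 15 were still made, with Col3a1, Col11a1 and Col26a1 lost.

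Arterial libraries had the lowest levels of the type I, III and V chain genes Col1a1, Col1a2, Col3a1 and Col5a1. Venous libraries had the highest levels of Col1a1 and Col3a1. Endocardial libraries had the highest levels of Col5a1, Col5a2, Col6a3, Col14a1 and Col23a1, and the lowest of the multiplexin Col15a1. The main type IV chains, Col4a1 and Col4a2, were abundant in all 3 populations. In total, collagen chains took 0.502%, 0.697% and 0.665% of the counts of the arterial libraries, 0.547%, 0.854% and 0.764% of the venous libraries and 0.427%, 0.673% and 0.716% of the endocardial libraries, so the 3 ranges overlapped. Within each of the 3 batches the venous share was above the arterial and the endocardial share. The make-up differed too. Col4a1 and Col4a2 together took 81.0% to 85.1% of the collagen counts in arterial libraries, 63.9% to 74.8% in venous libraries and 46.5% to 53.7% in endocardial libraries, with no overlap. Fibrillar chains took 2.76% to 4.87% in arterial libraries, 14.0% to 20.8% in venous libraries and 20.9% to 28.1% in endocardial libraries. With type IV counts left out, the fibrillar share was 18.6% to 25.8% in arterial, 55.3% to 57.8% in venous and 45.2% to 53.3% in endocardial libraries, so that the venous libraries then lay above the endocardial ones. These are shares of counts, with no correction for transcript length.

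**Figure D1:**
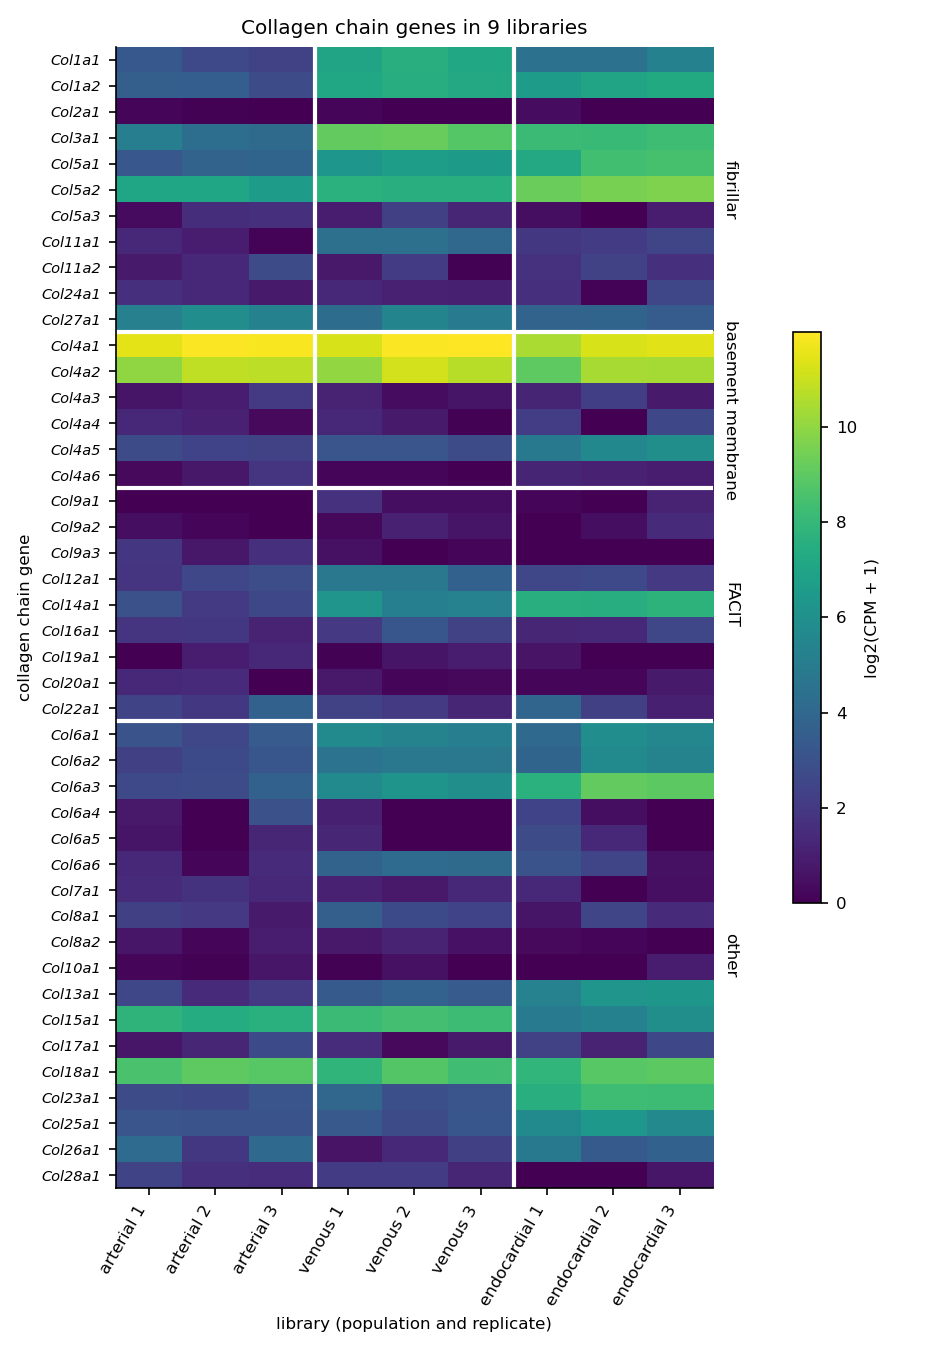
Level of the 44 collagen chain genes in 9 libraries, as log2(CPM + 1) on the colour scale, with genes in rows by family and libraries in columns by population. Col4a1 and Col4a2 are bright in all columns, the upper fibrillar rows are darker in the arterial columns, and Col23a1 is bright in the endocardial columns.

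Per kilobase of transcript, Col4a1 stood at 530 ± 76.3 CPM per kb in arterial libraries, 523 ± 136 in venous libraries and 338 ± 110 in endocardial libraries, and was ahead of every other chain in each (SD, n = 3). Col4a2 came next at 241 ± 71.5 CPM per kb in arterial, 257 ± 94.1 in venous and 166 ± 75.0 in the endocardial libraries. Behind them the order differed. In arterial libraries Col18a1 followed at 80.6 ± 12.9 CPM per kb and Col15a1 at 38.0 ± 5.00. In venous libraries Col3a1 followed at 94.5 ± 12.2 CPM per kb, ahead of Col15a1 at 59.5 ± 5.80 and Col18a1 at 58.6 ± 18.2, which did not differ beyond their spread. In endocardial libraries Col5a2 followed at 109 ± 16.7 CPM per kb, ahead of Col18a1 at 71.7 ± 26.1, Col3a1 at 51.9 ± 3.40 and Col23a1 at 46.5 ± 12.2. These orders are of means. In endocardial libraries the spread (1 SD each way) of Col4a2 overlapped that of Col5a2. That of Col18a1 overlapped those of Col5a2, Col3a1 and Col23a1.

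Between arterial and venous libraries, 0 of the 40 tested chains were called higher and 11 were called lower, which is 27.5% of the chains. Over all genes tested, 1.07% were called (0.310% higher and 0.760% lower). At an unadjusted p under 0.05, 1 chain was higher and 14 were lower, and DESeq2 called 1 higher (Col26a1) and 13 lower. The median log2 difference was -0.29 over the chains and 0.03 over all genes. Between arterial and endocardial libraries, 2 chains were higher and 13 lower, against 5.92% of all genes higher and 5.75% lower (11.7% in all), with a median of -0.41 over the chains and 0.01 over all genes. Between venous and endocardial libraries, 6 chains were higher and 9 lower, against 5.81% of all genes higher and 4.44% lower (10.2% in all), with a median of -0.16 over the chains and -0.10 over all genes. The 3 comparisons share libraries, so they are not independent of each other. In all, 18 chains were called in at least 1 comparison and 22 in none. The direction of every call was the same in each of the 3 batches that the labels number, for 11 of 11, 15 of 15 and 15 of 15 calls, against 34.0%, 41.3% and 44.0% of all tested genes, and called genes are selected for this.

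The tested chains were 10 fibrillar, 6 type IV, 7 FACIT and 17 other. By family, the arterial to venous calls were 5 fibrillar, 2 FACIT and 4 other chains, all lower in arterial libraries, and 0 of 6 type IV chains. That is 50%, 28.6%, 23.5% and 0% of those tested, against 1.07% of all genes. The arterial to endocardial calls were 1 fibrillar chain higher and 5 lower, 1 type IV chain lower, 1 FACIT chain lower, and 1 other chain higher and 6 lower. In that order these are 60%, 16.7%, 14.3% and 41.2% of those tested, against 11.7% of all genes. The type IV and FACIT shares rest on 1 chain each and are near that of all genes. The venous to endocardial calls were 4 fibrillar chains higher and 2 lower, 1 type IV chain lower, 1 FACIT chain higher and 1 lower, and 1 other chain higher and 5 lower. These are 60%, 16.7%, 28.6% and 35.3% of those tested, against 10.2% of all genes, and the type IV share again rests on 1 chain. The median log2 difference of the 10 tested fibrillar chains was -1.80 for arterial minus venous, -2.08 for arterial minus endocardial and 0.58 for venous minus endocardial libraries.

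**Figure D2:**
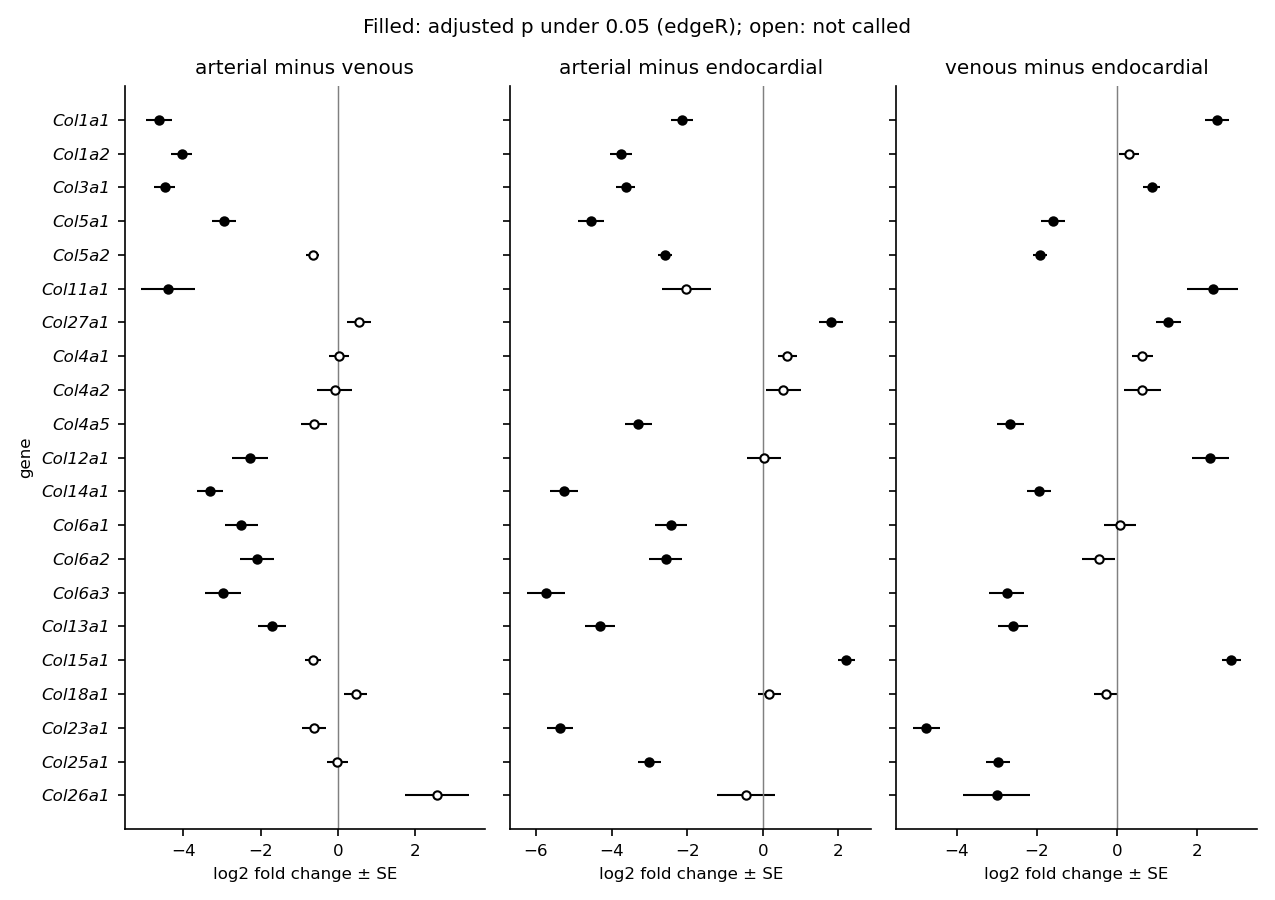
Log2 fold change ± SE (horizontal axes) of 21 named collagen chain genes (vertical axis) in the 3 comparisons, with filled points for an adjusted p under 0.05 in edgeR and open points for the rest. Col1a1 lies at -4.63 for arterial minus venous and at 2.48 for venous minus endocardial, while Col23a1 lies at -5.37 and -4.76 against endocardial libraries.

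The sequence just before the annotated start is shown for 4 chains with different patterns: Col3a1 and Col5a1 (both lower in arterial libraries, and of opposite direction between venous and endocardial libraries), Col15a1 (higher in both coronary populations than in endocardial libraries) and Col23a1 (lower in both). Each is the 250 bases upstream of the start in RefSeq on GRCm38.p6, 5′ to 3′ on the plus strand and free of annotated exons, at chr1:45311288-45311537, chr2:27886175-27886424, chr4:47207762-47208011 and chr11:51289670-51289919 in that order. Capitals mark matches, on either strand, to 3 motifs of which none contains another. The first is TATAAA, a core promoter element. The second is the element known by its letters as CCAAT. The third is the GC box, written GGGCGG, whose opposite strand reads CCGCCC.
Col3a1: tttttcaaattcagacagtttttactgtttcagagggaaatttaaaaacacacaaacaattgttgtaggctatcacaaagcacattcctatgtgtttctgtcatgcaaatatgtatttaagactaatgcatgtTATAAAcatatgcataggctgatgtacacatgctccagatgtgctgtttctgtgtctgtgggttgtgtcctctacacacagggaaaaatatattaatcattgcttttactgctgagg
Col5a1: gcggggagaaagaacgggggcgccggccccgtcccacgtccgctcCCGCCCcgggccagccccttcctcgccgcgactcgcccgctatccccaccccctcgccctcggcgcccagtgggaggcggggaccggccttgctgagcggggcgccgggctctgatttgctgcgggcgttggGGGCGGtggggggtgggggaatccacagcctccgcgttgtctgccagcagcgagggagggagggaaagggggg
Col15a1: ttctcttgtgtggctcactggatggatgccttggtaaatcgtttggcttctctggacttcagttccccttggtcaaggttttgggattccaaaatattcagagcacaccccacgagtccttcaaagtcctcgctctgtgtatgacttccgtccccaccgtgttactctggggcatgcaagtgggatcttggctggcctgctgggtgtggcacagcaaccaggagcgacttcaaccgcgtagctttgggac
Col23a1: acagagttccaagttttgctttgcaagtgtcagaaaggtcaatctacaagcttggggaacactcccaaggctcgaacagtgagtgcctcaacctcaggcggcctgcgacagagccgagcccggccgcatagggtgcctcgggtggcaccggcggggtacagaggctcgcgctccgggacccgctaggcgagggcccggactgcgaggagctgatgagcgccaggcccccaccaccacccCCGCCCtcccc
The Col3a1 window holds a TATAAA that begins 117 bases before the start. The Col5a1 window holds a GC box on each strand, and the Col23a1 window a GC box on the opposite strand close to the start. The Col15a1 window holds none of the 3. The promoter table used here matched 35 of the 44 chains, with 38 windows. TATAAA was in 5 of these windows (13.2%) and in 12.4% of 32817 windows of the same length over all genes, CCAAT in 13 (34.2%, against 33.8%) and GGGCGG in 22 (57.9%, against 32.7%). A match is a run of letters and not a shown site of binding.

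Type IV collagen is a heterotrimer of Col4a1 and Col4a2 chains in most basement membranes, with Col4a3 to Col4a6 used in fewer tissues. Col4a1 (chromosome 8, 11198423 to 11312826, minus strand, GRCm38) had 2922, 3831 and 3755 CPM in arterial libraries, 2425, 3903 and 4055 in venous libraries and 1420, 2475 and 2812 in endocardial libraries. The arterial and venous ranges overlapped widely, and the lowest value of each population was that of replicate 1. Col4a2 (chromosome 8, 11312805 to 11449287, plus strand) had 1023, 1858 and 1781 CPM in arterial, 1054, 2268 and 1645 in venous and 513, 1363 and 1338 in the endocardial libraries, again with the lowest value in replicate 1. Neither passed the test between arterial and venous libraries, where the log2 difference was 0.02 ± 0.26 for Col4a1 and -0.09 ± 0.46 for Col4a2 (adjusted p = 0.997 and 0.987, edgeR).

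Against endocardial libraries, Col4a1 differed by 0.65 ± 0.26 in arterial and 0.63 ± 0.26 in venous libraries (log2, adjusted p = 0.172 and 0.188), and Col4a2 by 0.54 ± 0.46 and 0.63 ± 0.46 (adjusted p = 0.648 and 0.515). These 4 differences were called once the replicate number was a block. With it, Col4a1 was higher by 0.70 ± 0.13 in arterial and 0.65 ± 0.13 in the venous libraries (adjusted p = 0.000901 and 0.0021), and Col4a2 by 0.61 ± 0.15 and 0.69 ± 0.15 (adjusted p = 0.0079 and 0.00382). Over all alternatives the adjusted p ran from 0.000901 to 0.473 and from 0.00162 to 0.505 for Col4a1, and from 0.0079 to 0.891 and from 0.00382 to 0.834 for Col4a2. Without venous replicate 1, Col4a1 was called higher in venous libraries at 0.84 (adjusted p = 0.0493), and with no filter on low counts it was called in both comparisons (adjusted p = 0.00151 and 0.00162). The 2 genes start head to head on opposite strands and share 22 exon bases, and Col4a2 shares 43 with a non-coding antisense gene. Whether the counting used strand is not given in the sources used here.

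Col4a5, a chain of the less common type IV networks (chromosome X, 141475385 to 141689234, plus strand), had 5.60, 4.26 and 4.12 CPM in arterial libraries and 7.99, 7.97 and 5.58 in venous libraries, against 28.2, 48.0 and 60.6 in endocardial libraries. All endocardial libraries lay above all others. Against endocardial libraries the log2 difference was -3.29 ± 0.35 in arterial libraries (9.78-fold lower, adjusted p = 5.63e-06) and -2.67 ± 0.34 in venous libraries (6.35-fold lower, adjusted p = 5.75e-05). Col4a3, Col4a4 and Col4a6 were tested and not called in any comparison, with means of at most 2.87 CPM in any population.

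Type I collagen, the main fibre of connective tissue, is a heterotrimer of Col1a1 and Col1a2 chains. Col1a1 (chromosome 11, 94936224 to 94953042, plus strand) had 8.84, 5.24 and 4.04 CPM in arterial libraries, 126, 179 and 142 in venous libraries and 21.8, 21.2 and 37.1 in endocardial libraries. The 3 populations did not overlap, with venous highest and arterial lowest. The log2 difference was -4.63 ± 0.33 for arterial minus venous (24.7-fold lower, adjusted p = 1.67e-06), -2.14 ± 0.30 for arterial minus endocardial (adjusted p = 0.00015) and 2.48 ± 0.30 for venous minus endocardial libraries (adjusted p = 4.65e-05). Its partner Col1a2 (chromosome 6, 4504814 to 4541544, plus strand) had 11.4, 11.1 and 5.59 CPM in arterial, 140, 176 and 149 in venous and 94.3, 128 and 156 in the endocardial libraries. Here the venous and endocardial values overlapped. Col1a2 was lower in arterial libraries, with a log2 difference of -4.05 ± 0.28 from venous and -3.75 ± 0.28 from endocardial libraries (adjusted p = 6.4e-07 and 1.31e-07), while venous minus endocardial was 0.30 ± 0.25 (adjusted p = 0.548).

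Col3a1, the single chain of type III collagen in the walls of vessels and hollow organs (chromosome 1, 45311538 to 45349706, plus strand), had 34.2, 19.4 and 16.4 CPM in arterial libraries, 547, 581 and 450 in venous libraries and 284, 273 and 310 in endocardial libraries. It fell by 4.49 ± 0.26 in arterial against venous libraries on the log2 scale (adjusted p = 1.42e-07) and by 3.63 ± 0.25 against endocardial libraries (adjusted p = 6.95e-08). It was higher in venous than in endocardial libraries by 0.86 ± 0.22 (adjusted p = 0.0205), with no overlap. That last call was lost without endocardial replicate 1 or 2 (adjusted p = 0.0556 and 0.0658) and without venous replicate 1 or 2 (adjusted p = 0.0579 and 0.0568), where the log2 difference was 0.86, 0.85, 0.84 and 0.79. Its adjusted p over all alternatives ran from 3.7e-05 to 0.0658.

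Type V collagen sets the start and width of type I fibrils. Col5a1 (chromosome 2, 27886425 to 28039514, plus strand) had 8.62, 13.2 and 13.5 CPM in arterial, 77.2, 103 and 91.6 in venous and 148, 322 and 357 in endocardial libraries. Unlike that of Col1a1 and Col3a1, its order was endocardial, venous, arterial, with no overlap. The log2 difference was -2.94 ± 0.31 for arterial minus venous (adjusted p = 0.000376), -4.54 ± 0.34 for arterial minus endocardial (adjusted p = 1.08e-06) and -1.61 ± 0.30 for venous minus endocardial libraries (adjusted p = 0.00311). Col5a1 shares 99 and 113 exon bases with 2 non-coding genes on the other strand, which is 1.17% and 1.33% of its exons.

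Col5a2, the partner chain (chromosome 1, 45374321 to 45503282, minus strand), had 133, 133 and 94.1 CPM in arterial, 198, 187 and 184 in venous and 598, 745 and 816 in the endocardial libraries. It had the same order, and its log2 difference from endocardial libraries was -2.58 ± 0.18 in arterial and -1.93 ± 0.18 in the venous libraries (adjusted p = 4.89e-08 and 1.65e-06). Arterial minus venous was -0.66 ± 0.17 (adjusted p = 0.106), although the libraries did not overlap. That difference was called with DESeq2 (adjusted p = 0.0191), with no filter on low counts (0.0164) and without endocardial replicate 1 (0.0487), within a range of 0.0164 to 0.471.

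Col11a1, a type XI chain that joins type V in fibrils (chromosome 3, 114030540 to 114220718, plus strand), had 1.62, 0.922 and 0.0735 CPM in arterial, 20.3, 20.8 and 14.8 in venous and 2.83, 3.24 and 4.61 in endocardial libraries. Its level was highest in all 3 venous libraries. Arterial minus venous was -4.40 ± 0.70 (log2, adjusted p = 0.00289), and -5.16 without arterial replicate 1 (adjusted p = 0.000832, in a range of 6.96e-10 to 0.0138). Venous minus endocardial was 2.38 ± 0.63 (adjusted p = 0.0214), a call lost without endocardial replicate 1 or 2 (0.0513 and 0.0709) and without venous replicate 1 or 2 (0.0736 for each), in a range of 0.000502 to 0.0736. Arterial minus endocardial was -2.02 ± 0.65 (adjusted p = 0.0576), and was called with the replicate block (-2.24 ± 0.69, adjusted p = 0.0404), with DESeq2 (0.0151), with no filter (0.00933), without endocardial replicate 1 (0.0458) and without arterial replicate 1 (-2.77, 0.0144), in a range of 0.00933 to 0.454.

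Col27a1, a fibrillar chain known mainly from cartilage (chromosome 4, 63214004 to 63334991, plus strand), went the other way. It had 36.2, 57.3 and 37.0 CPM in arterial and 17.9, 41.3 and 31.1 in venous libraries, against 13.3, 13.7 and 10.1 in endocardial libraries. It was higher than in endocardial libraries by 1.81 ± 0.32 in arterial (log2, adjusted p = 0.000788) and 1.28 ± 0.32 in venous libraries (adjusted p = 0.0133). The venous call was lost without endocardial replicate 3 (1.17, adjusted p = 0.0505) and without venous replicate 2 (1.00, adjusted p = 0.0958), in a range of 0.000174 to 0.0958. Arterial minus venous was 0.53 ± 0.31 (adjusted p = 0.713). Of the remaining fibrillar chains, Col5a3, Col11a2 and Col24a1 were not called and reached at most 2.81 CPM in the mean of a population.

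**Figure D3:**
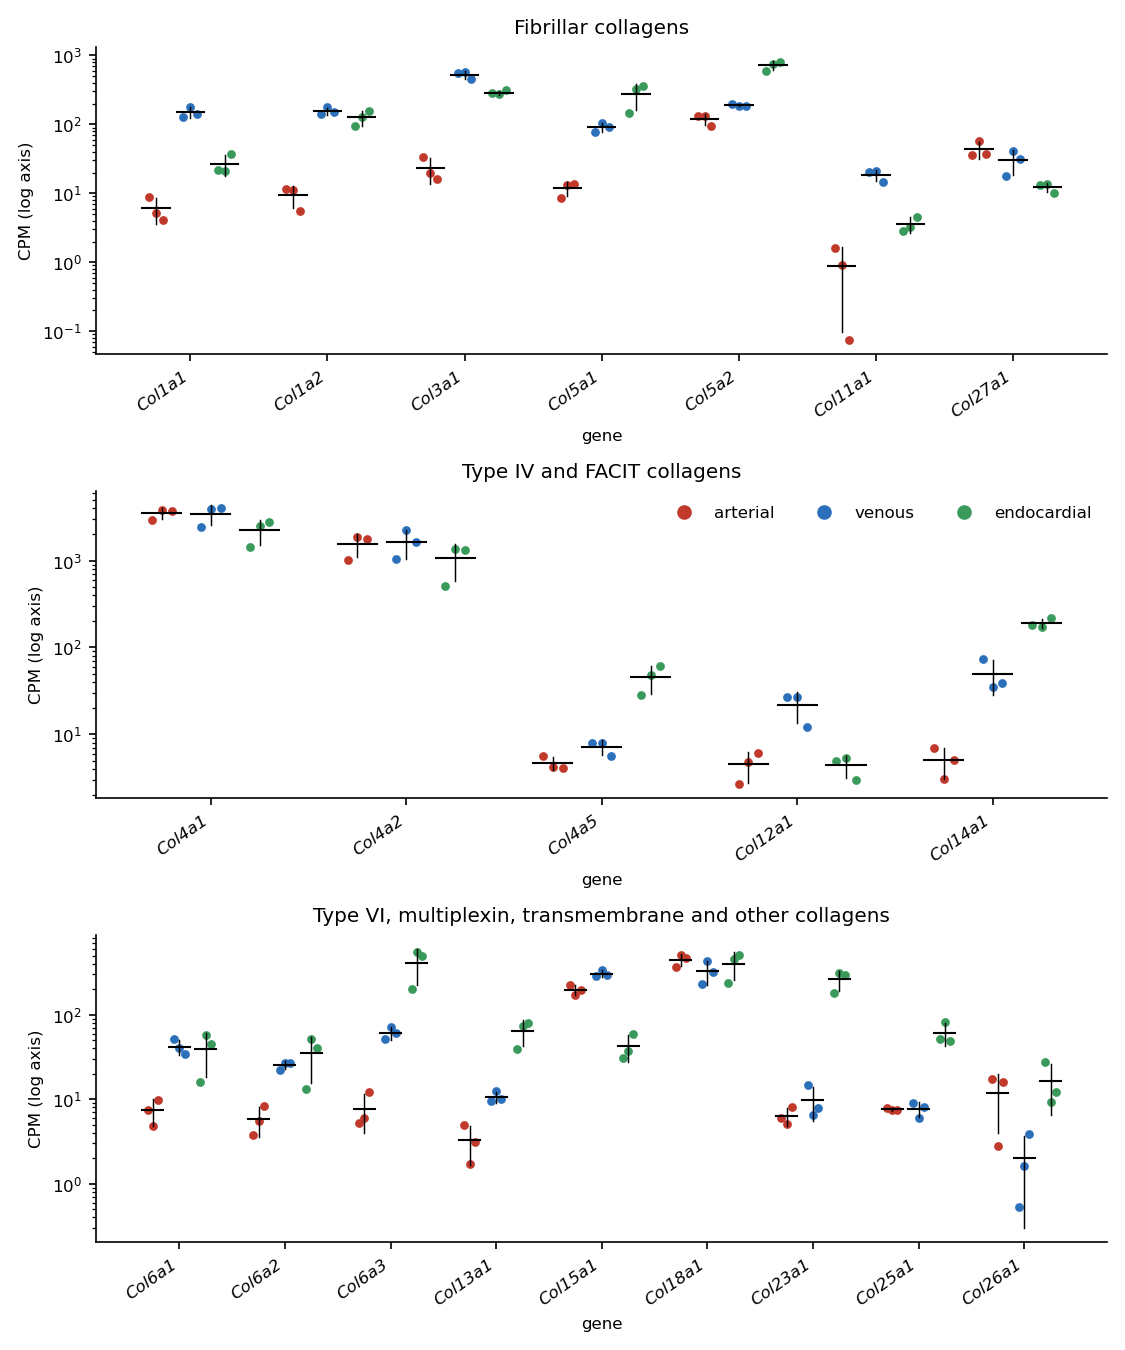
Level in CPM (log axis) of 21 named collagen chain genes in 9 libraries, with a point per library, a horizontal line at the mean and a vertical line of 1 SD each way (n = 3). Col1a1, Col1a2 and Col3a1 average 6.04, 9.35 and 23.3 CPM in arterial libraries against 149, 155 and 526 in venous libraries, and Col23a1 averages 263 CPM in endocardial libraries.

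The summed fibroblast markers, like the summed fibrillar chains, were lowest in the arterial libraries, while other marker lists had other orders. The summed level of 10 fibroblast markers other than collagens was 68.2 to 79.3 CPM in arterial, 710 to 817 in venous and 1224 to 1463 in the endocardial libraries. Of these 10, 4 were lower in arterial than in venous libraries, where 0.760% of all genes were lower. Another count of 4 were lower in arterial than in endocardial libraries, where 5.75% of all genes were lower. None was higher in either comparison. For arterial minus venous all 10 had an unadjusted p under 0.05, DESeq2 called 8, and the median log2 difference was -3.88 against 0.03 over all genes. For arterial minus endocardial libraries 4 had an unadjusted p under 0.05, DESeq2 called 4, and the median was -2.82. Between venous and endocardial libraries 2 were higher and 3 lower (5.81% and 4.44% of all genes), with 6 called by DESeq2 and a median of 0.86. Most of the sum was Postn, at 60.5, 574 and 1047 CPM in the mean (arterial, venous, endocardial). Of the 10, 4 averaged highest in endocardial libraries, among them Pdgfra at 2.97, 32.4 and 112 CPM. The other 6 averaged highest in venous libraries, among them Dpt at 1.75, 35.1 and 2.53 CPM and Ogn at 1.17, 28.1 and 1.02 CPM. Dpep1 was at 0 in all 3 arterial libraries. The summed level of the fibrillar chains was 237, 245 and 179 CPM in arterial, 1129, 1296 and 1065 in venous and 1168, 1509 and 1698 in the endocardial libraries. The part of fibroblast-like RNA in these results was not tested. In sorted bulk RNA, fewer cells of a type and less RNA per cell cannot be told apart.

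For the counts in this paragraph, the shares of all genes called higher and lower were 0.310% and 0.760% for arterial minus venous. They were 5.92% and 5.75% for arterial minus endocardial, and 5.81% and 4.44% for venous minus endocardial. The 8 markers of mesenchymal transition and valve summed to 92.4 to 125 CPM in arterial, 341 to 618 in venous and 898 to 1254 in the endocardial libraries, and 2 of 8 were lower in arterial than in venous libraries. Most of the venous and endocardial sums was Vcan, at 32.3, 329 and 1000 CPM in the mean (arterial, venous, endocardial). Against endocardial libraries, 2 of these 8 were higher (Snai2, Msx1) and 2 lower (Vcan, Hapln1) in arterial libraries. In venous libraries 2 were higher (Snai2, Msx1) and 1 lower (Vcan). The 10 mural markers had sums, mostly of Abcc9, of 537 to 847 CPM in arterial, 241 to 347 in venous and 83.0 to 151 in endocardial libraries. In arterial libraries 1 of the 10 was higher than in venous and 3 than in endocardial libraries, and in venous libraries 2 were higher and 1 lower than in endocardial libraries. The list did not move one way: Abcc9 averaged 517, 201 and 48.8 CPM, Rgs5 71.3, 29.3 and 4.17 CPM and Pdgfrb 14.8, 9.40 and 40.8 CPM (arterial, venous, endocardial). The 8 cardiomyocyte markers summed to 260 to 368 CPM in arterial, 391 to 535 in venous and 483 to 579 in the endocardial libraries. Nppa was at most 0.884 CPM in any library and was not tested. In arterial libraries 1 of the 7 tested was lower than in venous and 3 than in endocardial libraries, and 0 were called between venous and endocardial libraries (edgeR; 0 at an unadjusted p under 0.05 and 0 with DESeq2). The 6 epicardial markers, most of it Wt1, summed to 181 to 208, 140 to 171 and 25.3 to 28.4 CPM in the arterial, venous and endocardial libraries. Of the 5 tested, 1 was higher in arterial and 2 in venous than in endocardial libraries. The list did not move one way, with a median log2 difference from endocardial libraries of -1.64 in arterial and -1.29 in venous libraries. Upk3b, Msln and Lrrn4 averaged highest in endocardial libraries, at 2.36, 1.15 and 1.73 CPM, and were not called. The 6 leukocyte markers summed to 3.57 to 9.27 CPM in arterial, 5.74 to 6.81 in venous and 4.61 to 9.70 in endocardial libraries, with C1qa at 0 in 8 of 9 libraries, and 0 of 4 tested were called in any comparison by edgeR (0 at an unadjusted p under 0.05 and 0 with DESeq2). The 7 pan-endothelial markers summed to 4824 to 6590 CPM in arterial, 4560 to 5912 in venous and 3206 to 4211 in the endocardial libraries. They too moved both ways. Against endocardial libraries, 3 were higher and 1 lower in arterial libraries, and 2 higher and 1 lower in venous libraries. The lower one was Tek in both, at 390, 536 and 948 CPM in the mean (arterial, venous, endocardial). Between arterial and venous libraries edgeR called 0 of the 7. The part of these cell types in the results was not tested.

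**Figure D4:**
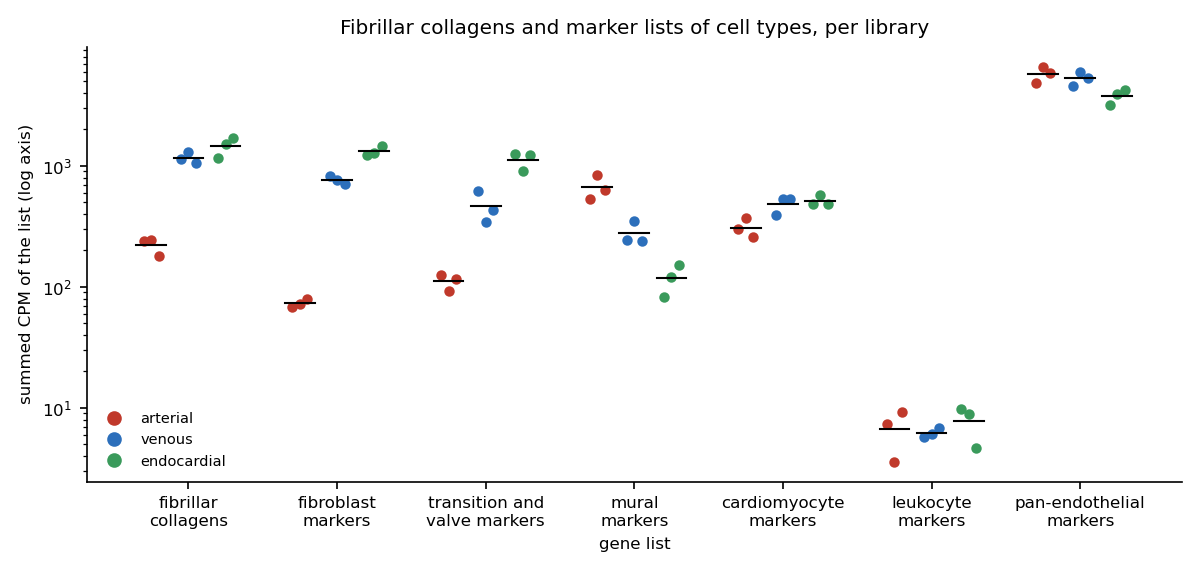
Summed level in CPM (log axis) of the fibrillar collagens and of 6 marker lists (horizontal axis) in 9 libraries, with a point per library and a line at the mean of 3. Fibrillar chains and fibroblast markers are both lowest in the arterial libraries, where the fibroblast markers sum to 68.2 to 79.3 CPM, and the summed mural markers, mostly Abcc9, are highest there at 537 to 847 CPM.

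FACIT collagens coat the fibrils. Col14a1 (chromosome 15, 55307750 to 55520803, plus strand) had 6.93, 3.05 and 5.07 CPM in arterial, 74.0, 35.5 and 38.7 in venous and 181, 174 and 216 in endocardial libraries, with no overlap. The log2 difference was -3.31 ± 0.34 for arterial minus venous (adjusted p = 0.000258), -5.25 ± 0.37 for arterial minus endocardial (38.1-fold lower, adjusted p = 5.98e-07) and -1.95 ± 0.31 for venous minus endocardial libraries (adjusted p = 0.00116). Col12a1 (chromosome 9, 79598991 to 79718831, minus strand) had another order, with 2.65, 4.78 and 6.10 CPM in arterial, 26.9, 26.8 and 12.3 in venous and 4.89, 5.33 and 2.99 in endocardial libraries. The log2 difference was 2.32 ± 0.46 for venous minus endocardial (adjusted p = 0.00282) and -2.28 ± 0.46 for arterial minus venous libraries (adjusted p = 0.0198), while arterial minus endocardial was 0.04 ± 0.45 (adjusted p = 0.986). The arterial to venous call was lost without arterial replicate 1 (adjusted p = 0.0599), venous replicate 1 (0.128) or venous replicate 2 (0.114), in a range of 0.00025 to 0.128 in which the log2 difference ran from -2.58 to -2.02. The 5 remaining tested FACIT chains were not called in any comparison. Col9a3 had 2.73, 0.691 and 2.21 CPM in arterial and 0.473, 0 and 0.154 in venous libraries and was at 0 in all endocardial libraries, where 3 counts per library would be 0.204 to 0.229 CPM.

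Type VI collagen forms beaded filaments between basement membranes and the fibrils around them, and its usual form joins the chains Col6a1, Col6a2 and Col6a3. Col6a1 (chromosome 10, 76708792 to 76726168, minus strand) had 7.44, 4.84 and 9.93 CPM in arterial, 51.3, 40.1 and 34.0 in venous and 16.2, 57.2 and 45.1 in endocardial libraries. Arterial libraries lay below all others, and the venous and endocardial values overlapped. In arterial libraries it was lower, at -2.50 ± 0.42 against venous and -2.42 ± 0.42 against endocardial libraries (log2, adjusted p = 0.0101 and 0.00155), and venous minus endocardial was 0.08 ± 0.40 (adjusted p = 0.94). Without arterial replicate 1 the arterial to venous call was lost (-2.52, adjusted p = 0.0795, in a range of 9.15e-14 to 0.0795).

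Col6a2 (chromosome 10, 76595762 to 76623630, minus strand) had 3.83, 5.53 and 8.38 CPM in arterial, 22.4, 27.2 and 26.9 in venous and 13.4, 52.0 and 40.1 in endocardial libraries. The pattern was that of Col6a1. In arterial libraries it was lower, at -2.11 ± 0.44 against venous and -2.57 ± 0.44 against endocardial libraries (log2, adjusted p = 0.0299 and 0.000959), while venous minus endocardial was -0.46 ± 0.41 (adjusted p = 0.586). The arterial to venous call was lost without arterial replicate 1 or 2 (adjusted p = 0.0999 and 0.145) and without venous replicate 1, 2 or 3 (0.0587, 0.0708 and 0.0852), in a range of 4.04e-08 to 0.145. The log2 difference stayed between -2.45 and -1.88.

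Col6a3 (chromosome 1, 90765923 to 90843971, minus strand) differed from its partners in the endocardium. It had 5.31, 5.93 and 12.1 CPM in arterial, 51.2, 72.0 and 60.1 in venous and 201, 550 and 492 in endocardial libraries, with no overlap. The log2 difference was -2.97 ± 0.46 for arterial minus venous (adjusted p = 0.0209), -5.73 ± 0.51 for arterial minus endocardial (53.2-fold lower, adjusted p = 0.000101) and -2.76 ± 0.44 for venous minus endocardial libraries (adjusted p = 0.00437). The first was lost without arterial replicate 1 or 2 (adjusted p = 0.129 and 0.144) and without venous replicate 1, 2 or 3 (0.0971, 0.14 and 0.145), in a range of 1.17e-13 to 0.145. The last was lost without venous replicate 3 (adjusted p = 0.0555, in a range of 1.56e-13 to 0.0555). Col6a6, a chain that can take the place of Col6a3, was chosen for mention after its values were seen. It had 1.55, 0.173 and 1.76 CPM in arterial, 13.3, 17.0 and 16.6 in venous and 7.26, 4.76 and 0.475 in endocardial libraries, and was not called (arterial minus venous -3.76 ± 0.92, adjusted p = 0.106, in a range of 1.26e-06 to 0.293). The arterial to venous difference was called with DESeq2 (adjusted p = 0.000866), with no filter on low counts (1.26e-06), in a fit of the 2 populations alone (0.0138) and without endocardial replicate 3 (0.00454). Arterial minus endocardial was called in 2 alternatives (no filter, 0.0384; without endocardial replicate 3, 0.0289), and venous minus endocardial in 1 (no filter, 0.0152).

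Collagens XV and XVIII carry sugar side chains, lie in the vascular basement membrane and release fragments that restrain vessel growth in mice, of which endostatin, from Col18a1, is the best known. Col15a1 (chromosome 4, 47208161 to 47313167, plus strand) had 223, 171 and 196 CPM in arterial and 288, 342 and 293 in venous libraries, against 30.9, 37.8 and 59.0 in endocardial libraries. All 6 coronary libraries lay above the 3 endocardial ones. It was higher than in endocardial libraries by 2.21 ± 0.22 in arterial (log2, 4.61-fold, adjusted p = 2.59e-06) and 2.85 ± 0.23 in venous libraries (7.22-fold, adjusted p = 3.81e-07). Arterial minus venous was -0.65 ± 0.21 (adjusted p = 0.283), which was called with no filter on low counts (adjusted p = 0.0386, in a range of 0.0386 to 0.67). Col18a1 (chromosome 10, 77052178 to 77166548, minus strand) had 370, 510 and 472 CPM in arterial, 230, 434 and 319 in venous and 235, 462 and 507 in the endocardial libraries. The 3 populations overlapped, with log2 differences of 0.46 ± 0.30 for arterial minus venous, 0.17 ± 0.30 for arterial minus endocardial and -0.29 ± 0.30 for venous minus endocardial libraries (adjusted p = 0.779, 0.869 and 0.654).

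Collagens XIII, XXIII and XXV span the plasma membrane. All 3 were high in endocardial libraries. Col17a1, a further membrane-spanning chain, was not called in any comparison and averaged 2.49, 0.986 and 3.41 CPM (arterial, venous, endocardial). Col23a1 (chromosome 11, 51289920 to 51583918, plus strand) had 5.97, 5.07 and 8.02 CPM in arterial and 14.6, 6.61 and 7.99 in venous libraries, against 183, 310 and 296 in endocardial libraries. Its log2 difference from endocardial libraries was -5.37 ± 0.35 in arterial (41.4-fold lower, adjusted p = 2.34e-07) and -4.76 ± 0.34 in venous libraries (27.0-fold lower, adjusted p = 8.7e-07), and arterial minus venous was -0.62 ± 0.31 (adjusted p = 0.629). Col25a1, which in mice is needed for motor nerves to enter muscle (chromosome 3, 130131501 to 130599877, plus strand), had 7.96, 7.49 and 7.43 CPM in arterial, 9.05, 5.99 and 8.14 in venous and 51.3, 82.2 and 49.4 in endocardial libraries. It was lower than in endocardial libraries, at -3.00 ± 0.30 in arterial and -2.98 ± 0.30 in venous libraries (log2, adjusted p = 2.26e-06 and 3.89e-06), with -0.02 ± 0.28 for arterial minus venous (adjusted p = 0.997).

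Col13a1, which lies at nerve-muscle junctions and other sites of adhesion (chromosome 10, 61838236 to 61979108, minus strand), had 4.94, 1.73 and 3.16 CPM in arterial, 9.46, 12.5 and 10 in venous and 39.1, 74.0 and 80.9 in endocardial libraries, with no overlap. Against endocardial libraries it stood at -4.31 ± 0.40 in arterial and -2.60 ± 0.37 in venous libraries (log2, adjusted p = 1.09e-06 and 0.000136). Arterial minus venous was -1.71 ± 0.37 (adjusted p = 0.0323). That call was lost with the replicate block (-1.71 ± 0.39, adjusted p = 0.0526), in a fit of the 2 populations alone (0.131), without arterial replicate 2 or 3 (0.0973 and 0.133) and without venous replicate 1, 2 or 3 (0.0533, 0.0686 and 0.0596). The range over the alternatives was 1.07e-05 to 0.133.

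Col26a1, a chain described in mouse testis and ovary (chromosome 5, 136741759 to 136883209, minus strand), had 17.2, 2.82 and 16.0 CPM in arterial, 0.532, 1.61 and 3.89 in venous and 27.5, 9.37 and 12.1 in endocardial libraries. Venous minus endocardial was -3.01 ± 0.83 (log2, adjusted p = 0.0449), so it was lower in venous libraries. That call was lost without 7 of the 9 libraries: arterial replicates 1 and 3 (adjusted p = 0.0637 and 0.0664), endocardial replicates 1, 2 and 3 (0.0859, 0.0673 and 0.0959) and venous replicates 1 and 2 (0.0916 and 0.208). Its log2 difference was -2.41 without endocardial replicate 1 and -3.91 without venous replicate 3 (adjusted p = 0.0206), and the adjusted p ranged from 2.3e-07 to 0.208. Arterial minus venous was 2.56 ± 0.82 (adjusted p = 0.334), and was called with DESeq2 (0.025) and with no filter on low counts (6.83e-05), in a range up to 0.809.

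The other 9 chains of this last family were at low levels, and the 8 of them that were tested were not called. The highest mean in a population was 15.6 CPM for Col6a6, 7.07 for Col8a1 and 3.41 for Col17a1, and below that for Col6a4, Col6a5, Col7a1, Col8a2, Col10a1 and Col28a1. Over all 44 chains, 25 averaged at least 5 CPM in 1 population or more, and 12 at least 100 CPM.

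Chains that join in 1 molecule were compared within each library, per kilobase of transcript. The ratio of Col1a1 to Col1a2 was 0.594 ± 0.148 in arterial, 0.863 ± 0.0548 in venous and 0.191 ± 0.0360 in the endocardial libraries (SD, n = 3), with no overlap. On the log2 scale it differed by 1.62 between arterial and endocardial and by 2.19 between venous and endocardial libraries, with an exact two-sided permutation p of 0.1 for each, the smallest that 3 against 3 libraries allow. The ratio of Col5a1 to Col5a2 was 0.0810 ± 0.0312 in arterial, 0.378 ± 0.0644 in venous and 0.293 ± 0.0855 in the endocardial libraries. Arterial libraries lay below the rest, with a log2 ratio difference of -2.28 from venous and -1.88 from endocardial libraries (exact permutation p = 0.1 for each), and venous and endocardial libraries overlapped. For Col6a3 over Col6a1 the ratio was 0.428 ± 0.120 in arterial and 0.616 ± 0.183 in venous libraries, against 4.45 ± 0.568 in endocardial libraries. The log2 ratio differed from that of endocardial libraries by -3.42 in arterial and -2.89 in venous libraries (exact permutation p = 0.1 for each).

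The ratio of Col4a1 to Col4a2 was 2.28 ± 0.434 in arterial, 2.11 ± 0.381 in venous and 2.17 ± 0.477 in the endocardial libraries, and overlapped in every comparison, with log2 differences of 0.12, 0.08 and -0.04 (exact permutation p = 0.6, 0.6 and 0.9). The ratio of Col6a1 to Col6a2 was 1.51 ± 0.623 in arterial, 1.90 ± 0.618 in venous and 1.3 ± 0.0620 in the endocardial libraries, and only the venous and endocardial libraries did not overlap. The multiplexins do not join each other, and the ratio of Col15a1 to Col18a1 was 0.487 ± 0.148 in arterial, 1.07 ± 0.257 in venous and 0.119 ± 0.0277 in the endocardial libraries. It did not overlap in any comparison, with a log2 difference of -1.15 for arterial minus venous, 2.02 for arterial minus endocardial and 3.16 for venous minus endocardial libraries (exact permutation p = 0.1 for each). In all, 18 ratio comparisons were made, and none can pass a threshold of 0.05 with 3 libraries a group.

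**Figure D5:**
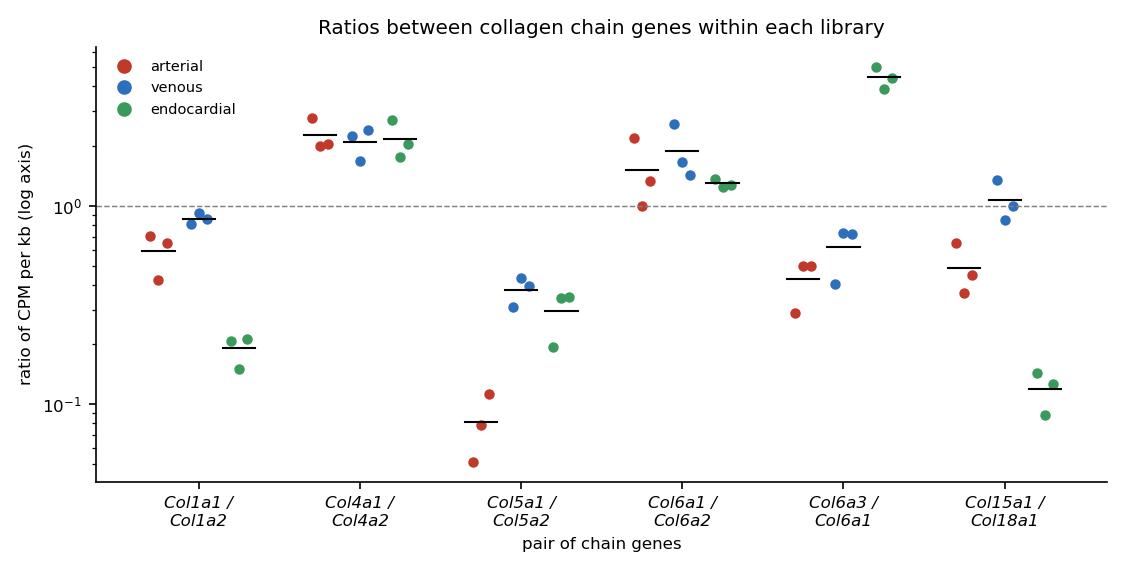
Ratio of the levels per kilobase of 6 pairs of collagen chain genes (horizontal axis) within each library, on a log axis, with a line at the mean of 3 libraries and a dashed line at a ratio of 1. The Col4a1 to Col4a2 ratio overlaps between populations, while Col6a3 over Col6a1 averages 4.45 in endocardial libraries against 0.428 in arterial and 0.616 in venous libraries.

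A list of 32 genes whose products modify, fold, secrete, cut or crosslink collagen was read from the same tests, and all 32 were tested. Between arterial and venous libraries edgeR called 0, with 5 at an unadjusted p under 0.05 and 0 called by DESeq2, and the median log2 difference was -0.20 against 0.03 over all genes. Between arterial and endocardial libraries 4 were higher and 7 lower, against 5.92% and 5.75% of all genes, with a median of -0.42 against 0.01 over all genes. Sparc, a collagen-binding protein of the matrix, averaged 4532 ± 274 CPM in arterial libraries against 1821 ± 178 in endocardial libraries (log2 1.32 ± 0.15, adjusted p = 8.51e-06). Tll1, a protease that trims procollagen, averaged 3.58 ± 1.67 CPM in arterial and 3.03 ± 0.700 in venous libraries, against 54.7 ± 18.6 in endocardial libraries. It fell by 3.93 ± 0.40 in arterial and by 4.17 ± 0.41 in venous libraries against endocardial libraries (log2, adjusted p = 3.4e-06 and 3.32e-06).

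Lox, which crosslinks collagen and elastin, averaged 13.6 ± 3.87 CPM in arterial and 25.8 ± 6.26 in venous libraries, against 86.0 ± 32.9 in endocardial libraries. Both coronary populations were lower (log2 -2.66 ± 0.31 and -1.74 ± 0.30, adjusted p = 1.28e-05 and 0.000847). P4ha3, a prolyl hydroxylase subunit, averaged 0.785 ± 0.553 CPM in arterial libraries against 23.1 ± 12.0 in endocardial libraries (log2 -4.86 ± 0.64, adjusted p = 4.79e-05). Between venous and endocardial libraries 4 of the 32 were higher and 6 lower, against 5.81% and 4.44% of all genes, with a median of -0.27 against -0.10 over all genes. Among them Sparc was higher in venous libraries at 4087 ± 708 CPM (log2 1.17 ± 0.15, adjusted p = 4.6e-05), as was Plod2, a lysyl hydroxylase, at 120 ± 16.7 CPM against 49.3 ± 9.44 in endocardial libraries (log2 1.28 ± 0.20, adjusted p = 0.000359).

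Of 12 collagen receptor genes, 9 were tested. Between arterial and venous libraries 0 were higher and 1 was lower, Adgrg6, an adhesion receptor that binds type IV collagen and is also on the endocardial marker list. It averaged 3.25 ± 0.277 CPM in arterial and 13.4 ± 0.678 in venous libraries, against 431 ± 47.6 in endocardial libraries (log2 -2.04 ± 0.18 for arterial minus venous, -7.04 ± 0.21 for arterial minus endocardial and -5.00 ± 0.19 for venous minus endocardial, adjusted p = 6.61e-06, 5.16e-12 and 2.02e-10). In each comparison with endocardial libraries 3 receptor genes were higher and 1 was lower, where 11.7% (arterial) and 10.2% (venous) of all genes were called. Itga2, the integrin chain of a type I collagen receptor, averaged 102 ± 8.83 CPM in arterial and 80.1 ± 4.36 in venous libraries, against 22.5 ± 6.70 in endocardial libraries (log2 2.18 ± 0.22 and 1.83 ± 0.22, adjusted p = 2.98e-06 and 2.66e-05). Itga1, the integrin chain that binds type IV collagen, averaged 156 ± 10.8 and 152 ± 11 CPM in arterial and venous libraries, against 60.7 ± 3.26 in endocardial libraries (log2 1.36 ± 0.16 and 1.32 ± 0.16, adjusted p = 1.73e-05 and 3.55e-05). Adgrg1, a receptor of type III collagen in the mouse brain, averaged 33.6 ± 9.72 and 20 ± 7.88 CPM in arterial and venous libraries, against 2.64 ± 2.11 in endocardial libraries (log2 3.67 ± 0.79 and 2.92 ± 0.77, adjusted p = 0.0158 and 0.0454). The arterial call of Adgrg1 was lost with the replicate block (adjusted p = 0.0565), without arterial replicate 2 or 3 (0.0665 and 0.058), without endocardial replicate 1 or 2 (0.0567 and 0.0627) and without venous replicate 3 (0.0544), in a range of 2.52e-08 to 0.0665. The venous call was lost with the replicate block (0.113), RLE size factors (0.0514), a fit of the 2 populations alone (0.0623) and without any 1 library other than endocardial replicate 3 (0.0776 to 0.168), in a range of 2.96e-06 to 0.168.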

How the data were processed

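RNA of sorted ventricular endothelial cells was sequenced as single reads, per the labels' protocols, which name NEB and NuGEN library kits without saying which library used which. The deposited values were gene-level expected counts, made with RSEM 1.2.3 after CASAVA 1.8.2 and cutadapt 1.3 per the submitters' processing notes, on GRCm38 with Ensembl release 76. Neither the aligner nor the use of strand is named in the labels or notes (not given in the sources used here).

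Of 41214 features, 40254 (97.67%) had a symbol. Of the values above 0, 45.5% were not whole, and all were rounded to whole counts. A single fit of all 9 libraries with 1 mean per population was made in edgeR 4.0.16 (R 4.3.3; TMM scaling; filterByExpr with a minimum count of 10; robust quasi-likelihood F test), with p adjusted by Benjamini-Hochberg over 17103 genes and a threshold of 0.05. The common dispersion was 0.409 (coefficient of variation 0.639). The SE is the absolute log2 difference divided by the square root of F. Levels per kilobase used the longest coding transcript of GENCODE M21, which also gave coordinates and overlaps. The fitting was tested on simulated data.

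Library totals are in the report, and counts of genes above 0 used rounded values. The labels number batches 1 to 3, the same as the replicates, so the numbers pair the libraries by the labels. Correlations of deviations from the population means ran from 0.083 to 0.165 in batch 1, 0.036 to 0.146 in batch 2 and -0.09 to 0.092 in batch 3. The fit has no block, and values with the replicate block are given where they change a call of a gene with full values.

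Alternatives were DESeq2 1.42.0, RLE size factors, no filter on low counts, the replicate block, a fit of the 2 populations alone and leaving out each of the 9 libraries, 14 in all. Full values are given for chains called in at least 1 comparison with a mean of at least 5 CPM in a population and for a fixed set of 12, 21 chains together, and for at most 4 members of another list per comparison. The chains and lists were chosen with earlier results of these data known. Intervals were not computed, and promoter sequences came from RefSeq on GRCm38.p6.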

Additional observations from a re-analysis of the deposited data

How the results depend on the processing

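The 21 chains with full values gave 63 differences and 882 values under 14 alternatives: 806 kept direction and side of the threshold, 39 lost the call, 18 gained one and 19 changed sign. All 15 arterial to endocardial calls held under every alternative, as did 6 of 11 arterial to venous calls (Col1a1, Col1a2, Col3a1, Col5a1, Col11a1, Col14a1) and 10 of 15 venous to endocardial calls. RLE size factors and DESeq2 shifted the median over all genes by at most 0.03 in size.

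The count of chains higher in arterial than in venous libraries was 0, but 1 with DESeq2 and 1 with no filter. The count lower there was 11, and 7 to 12 when a library was left out (7 without arterial replicate 1, venous replicate 1 or venous replicate 2). The count higher in arterial than in endocardial libraries was 2, but 4 with DESeq2 and 4 with the replicate block. The count higher in venous than in endocardial libraries was 6, and 3 to 6 when a library was left out (3 without venous replicate 2). With no filter 2 collagen processing genes were lower in arterial than in venous libraries, against 0. The replicate block changed the calls of Col13a1, Col4a1, Col4a2 and Col11a1 given in the report and no other call of the 21 chains. It also ended both Adgrg1 calls. With the block, 9 processing genes were lower in arterial than in endocardial libraries, against 7, and 8 were lower in venous than in endocardial libraries, against 6. The receptor genes higher in venous than in endocardial libraries were 3 with it, of which 2 were called without it.

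Every change of sign was in a difference that was not called, and the cause was not tested. For arterial minus venous, Col4a1 (0.02; -0.19 to 0.14 with a library left out) was -0.00 with no filter, -0.11 and -0.04 without arterial replicates 2 and 3, -0.01 without endocardial replicate 2 and -0.19 without venous replicate 1. Col4a2 (-0.09; -0.34 to 0.20) was 0.13 without arterial replicate 1 and 0.20 without venous replicate 2. Col25a1 (-0.02; -0.18 to 0.10) was 0.00 with DESeq2 and with RLE size factors, and 0.10 and 0.01 without venous replicates 1 and 3. For arterial minus endocardial, Col12a1 (0.04; -0.22 to 0.31) was -0.04, -0.22 and -0.17 without arterial replicates 2 and 3 and endocardial replicate 3, Col18a1 (0.17; -0.10 to 0.38) was -0.10 without endocardial replicate 1, and Col26a1 (-0.45; -0.80 to 0.16) was 0.00 and 0.16 without arterial replicate 2 and endocardial replicate 1. For venous minus endocardial, Col6a1 (0.08; -0.29 to 0.46) was -0.29 and -0.09 without endocardial replicate 1 and venous replicate 1.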

Other observations

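Several collagen chain genes are neighbours on GRCm38, and neighbours did not always share a pattern. Col3a1 and Col5a2 lie on chromosome 1 with 24614 bases between them and face each other on opposite strands. Between venous and endocardial libraries the log2 difference was 0.86 ± 0.22 for Col3a1 and -1.93 ± 0.18 for Col5a2, both called. Col6a2 and Col6a1 lie on chromosome 10 on the same strand with 85161 bases between them, and gave -0.46 ± 0.41 and 0.08 ± 0.40 in that comparison, neither called. Col4a4 and Col4a3 start 71 bases apart on opposite strands of chromosome 1, and Col4a6 and Col4a5 lie 1308 bases apart on opposite strands of chromosome X. Col4a5 averaged 45.6 ± 16.3 CPM in endocardial libraries, while Col4a6 averaged at most 1.19 CPM in any population.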
